A study of Mus musculus with 109 samples.

Results

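The 10 genes described here encode RNA-binding proteins of 4 families known for regulating splicing in neurons: Rbfox1, Rbfox2 and Rbfox3, Elavl2, Elavl3 and Elavl4, Nova1 and Nova2, and Ptbp1 and Ptbp2. They were chosen by gene symbol, and all 10 were among the 15973 genes of the deposited table. The table held raw read counts of 109 single cells from the cerebella of C57BL/6 mice at postnatal day 7 (P7), prepared on a Percoll density gradient, captured on C1 Fluidigm chips and labelled as granule precursor cells. The cells carried no treatment or transgene, and the labels named no animal. The sample titles placed the cells in 6 library groups of 18 or 19 cells, and the study describes cells from independent batches without tying them to these groups, so every p-value measures only the spread between these groups.

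Levels are given as CPM, the counts of a gene per 1000000 counts in that cell. Cells were compared by Mki67, a marker of cycling cells. Mki67 was at least 100 CPM in 32 cells (Mki67-high) and under 10 CPM in 75 cells (Mki67-low), and 2 cells lay between. The highest Mki67-low cell had 9.27 CPM and the lowest Mki67-high cell 132 CPM. Each library group held 3 to 8 Mki67-high and 10 to 15 Mki67-low cells. Total counts were 1562597 to 7900211 in Mki67-high and 1110182 to 8616017 in Mki67-low cells, and a single cell between the classes had 15071. Mki67-high cells had more genes with a count (median 4968 against 4193, highest 13533 against 6072). The 2 cells with the most genes were Mki67-high, with 13533 in library group 3 and 12684 in library group 6. Together with the cell of 15071 counts they are called the 3 cells of unusual depth below. The deepest cell, with 8616017 counts, was not among them. The granule lineage, but not the precursor state, was checked with 7 genes. They summed to at least 50 CPM in 32 of 32 Mki67-high and 73 of 75 Mki67-low cells. The frequent genes carry this sum. Neurod1 had 5 or more counts in 109 cells, Zic1 in 103, Meis1 in 102, Pax6 in 99, Zic2 in 66 and Barhl1 in 48. Atoh1, a gene of the precursors, had them in 11 cells, of which 7 were Mki67-high and 4 Mki67-low. The 8 astroglial markers summed to 0.599 to 17931 CPM (median 149) in Mki67-high and 0.179 to 30665 CPM (median 53.8) in Mki67-low cells. Their sum was at least 50 CPM in 21 of 32 and 40 of 75 cells. Only the 4 cells with at least 5 of the 8 markers at 50 CPM or more are called astroglial cells, or cells with astroglial genes, below. Of these, 3 were Mki67-high and 1 was Mki67-low. The 4 markers of inhibitory neurons summed to at least 50 CPM in 1 of 32 and 12 of 75 cells, respectively, the 6 markers of the oligodendrocyte lineage in 16 and 23 (median 58.9 and 4.48 CPM), and the 3 listed microglial markers in 3 and 0.

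Alternative splicing changes widely as neural progenitors become neurons, and these families are among its best known regulators. PTBP1 is the form of progenitors and non-neuronal cells and represses many neuronal exons. Its neuronal relative PTBP2 rises as PTBP1 is lost. RBFOX and NOVA proteins promote or repress exons according to where they bind relative to them, and the neuronal ELAVL (Hu) proteins bind U-rich elements and act on splicing and on mRNA stability. RBFOX3 is the NeuN antigen, a standard label of postmitotic neurons. In the cerebellum, granule cell progenitors divide in the outer external granule layer and leave the cycle before they migrate inward.

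PTBP1 acts on Ptbp2 itself. It promotes skipping of a 34-base exon, and the transcripts without it are degraded; Ptbp1 has a matching exon. These sequences are shown because they join the genes that are compared within cells here. Exons are in capitals with 30 bases of neighbouring exons on either side in lower case, from the GENCODE transcripts of mm10 (GRCm38).
Ptbp2 exon 10 of 14, chr3:119724612-119724645, minus strand: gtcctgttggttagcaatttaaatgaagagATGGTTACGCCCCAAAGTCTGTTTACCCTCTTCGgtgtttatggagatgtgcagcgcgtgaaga
Ptbp1 exon 9 of 13, chr10:79862014-79862047, plus strand: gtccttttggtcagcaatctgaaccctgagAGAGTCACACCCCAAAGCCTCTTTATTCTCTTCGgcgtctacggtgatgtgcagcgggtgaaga
The exons were identical at 26 of 34 bases. The Ptbp2 exon was present in 3 of 6 annotated transcripts spanning it, and the Ptbp1 exon in 4 of 7. Counts per gene add both forms together, so the inclusion of either exon was not measured.

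Expression of every gene differed widely between cells. Of the 10 genes, a median of 4 reached 50 CPM in a cell, with a range of 0 to 10, and 2 cells had none. The cell with all 10 was Mki67-high and was the one with 12684 genes with a count. An Elavl gene reached 50 CPM in 99 of 109 cells, an Rbfox gene in 69, a Nova gene in 67 and a Ptbp gene in 59. Levels were next compared between genes per kilobase of exon, as the mean over 6 library groups. Elavl4 was the highest with 105 ± 44.0 CPM per kilobase (SD, n = 6), followed by Elavl3 with 68.3 ± 32.5. Ptbp2 (37.7 ± 21.3), Elavl2 (36.8 ± 14.7), Rbfox2 (31.7 ± 14.5) and Rbfox3 (30.7 ± 10.9) formed the middle of the order. Nova1 (22.4 ± 7.89), Ptbp1 (20.6 ± 19.4), Rbfox1 (11.3 ± 8.73) and Nova2 (10.3 ± 10.7) were the lowest. None of the 9 neighbouring pairs in this order passed an exact two-sided sign-flip test over the library groups (p = 0.125 to 1.0, smallest reachable p = 0.03125).

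**Figure D1:**
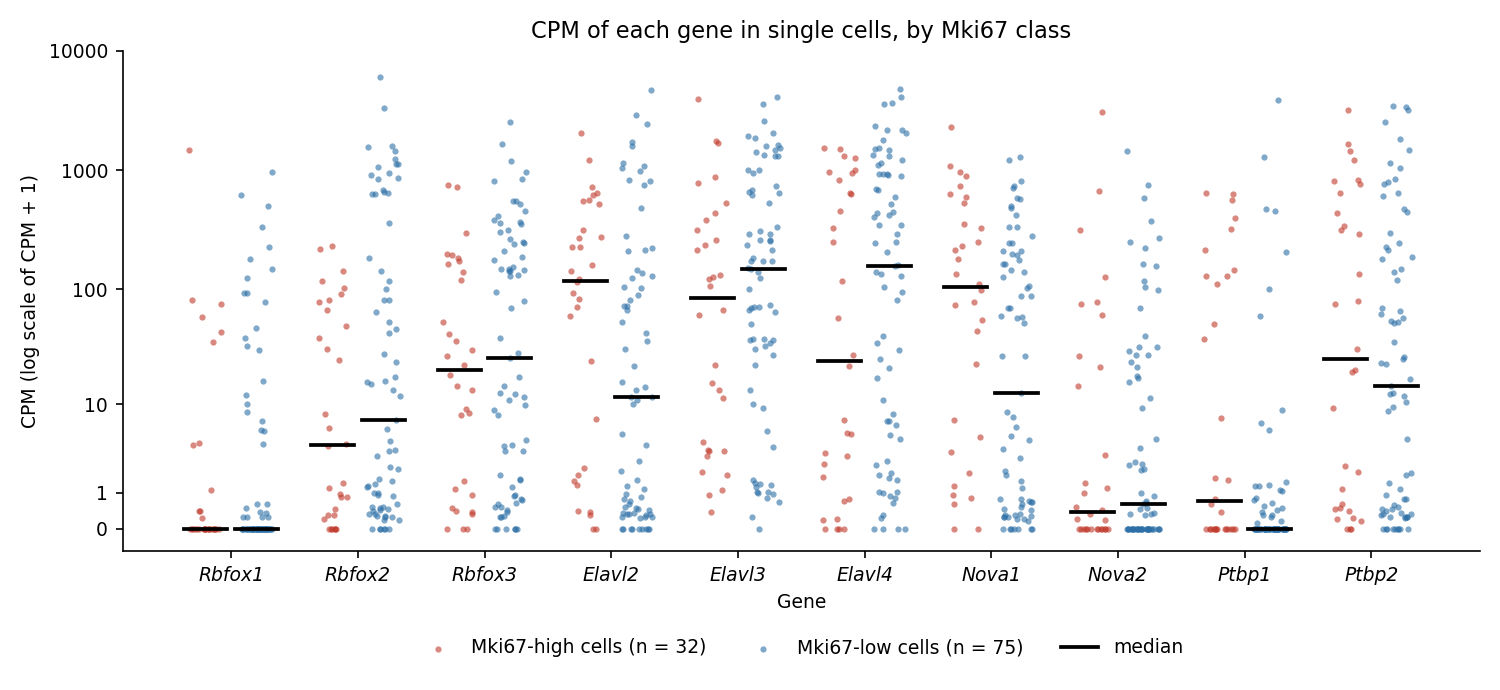
CPM of each of the 10 genes in single cells (vertical axis, log scale of CPM + 1), with 32 Mki67-high cells in red, 75 Mki67-low cells in blue and a black bar at each median. Every gene runs from under 1 CPM to 234 CPM or more in both classes, and the Rbfox2 points of Mki67-high cells stop at 234 CPM while 19 Mki67-low cells lie above that value.

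Low counts were frequent. In 60 combinations of gene and library group, cells with fewer than 5 counts of a gene were set against the summed count of that gene in the group. Where the sum was under the median of 13102, 31.5% of these cells had 1 to 4 counts rather than 0, against 74.0% where the sum was above it (Spearman rho = 0.68 over the 60 combinations, which share cells and depth). Over the combinations, counts of 1 to 4 were thus more frequent where the summed count was higher. The combinations mix genes and library groups, and the pattern was not tested within single genes. Shares at 50 CPM are given beside those with at least 1 count as a description. Libraries carried no molecular identifiers, and the Wilson 95% intervals below cover counting error only.

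In the comparison of classes, the counts of each class were summed in each library group and tested with edgeR's quasi-likelihood test across 9085 genes, at an adjusted p under 0.01. The test called 3 genes (0.033% of those tested), Mki67 itself, Cdc20 and Tacc3, and none of the 10 genes described here. At an unadjusted p under 0.05 it gave 667 genes (7.34%) and 1 of the 10, Rbfox2. DESeq2 on the same sums called 173 of 8118 genes with an adjusted p. Of the 10 it again gave Rbfox2 alone, with Rbfox1 given no adjusted p. The median log2 fold change (Mki67-high over Mki67-low) was -0.25 over the 10 genes and -0.18 over all genes tested. It was 0.09 over all genes with size factors by relative log expression, so changes are read against this shift. In the second measure, mean log2(CPM + 1) per class within each library group, all cells weigh equally. Its median over the 10 genes was -0.53 and over all genes 0.43.

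**Figure D2:**
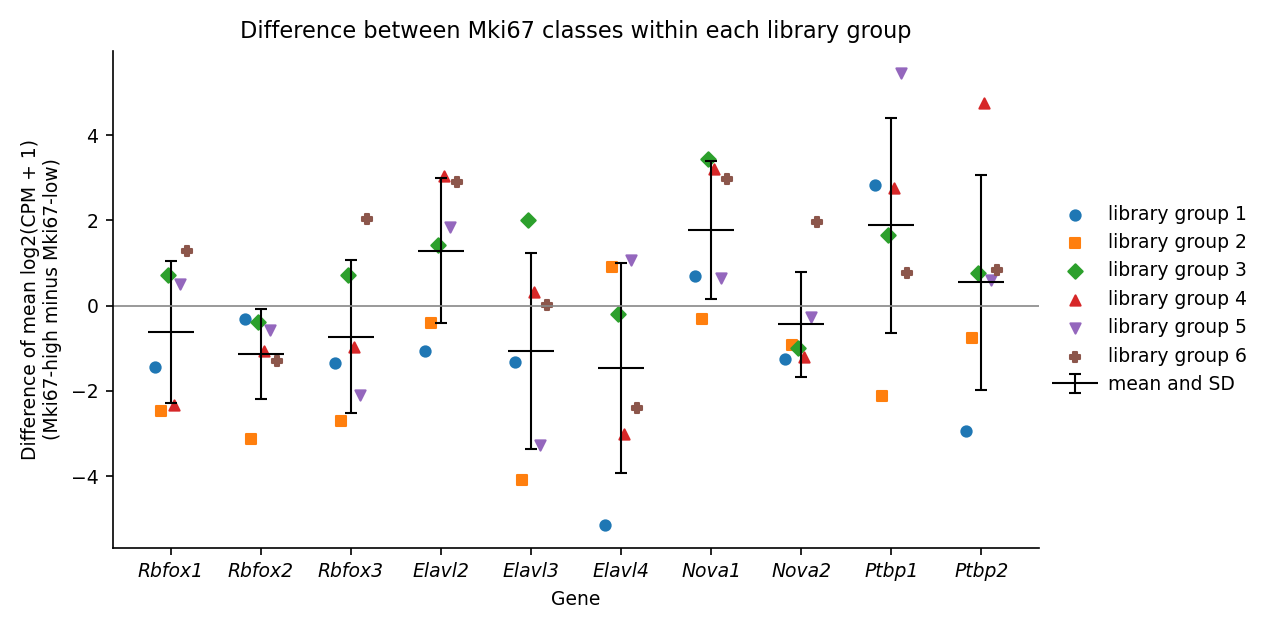
Difference of mean log2(CPM + 1) between Mki67-high and Mki67-low cells (vertical axis) for each gene, with 1 symbol per library group and the mean and SD in black. Rbfox2 lies below 0 in 6 of 6 library groups, and each of the other 9 genes has groups on both sides of 0.

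Rbfox2 (ENSMUSG00000033565, chr15:77078990-77307004, minus strand), the broadly expressed member of the RBFOX family, had the smallest p of the 10 genes in both measures. It reached 50 CPM in 9 of 32 Mki67-high cells (28.1%, 15.6 to 45.4) and 27 of 75 Mki67-low cells (36.0%, 26.1 to 47.3), so it was present in a part of both classes. The cells that had it differed in level, with a highest value of 234 CPM in Mki67-high and 6030 CPM in Mki67-low cells. Among cells with at least 50 CPM, the median was 103 CPM in Mki67-high and 677 CPM in Mki67-low cells.

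In the summed counts, Rbfox2 was 42.3, 42.6, 53.9, 51.5, 38.3 and 51.5 CPM in the Mki67-high cells of library groups 1 to 6 and 498, 358, 1077, 271, 70.6 and 237 CPM in the Mki67-low cells of the same groups. Every Mki67-high sum was below every Mki67-low sum, which was true of 39 of 9085 genes (0.429%) and of no other gene of the 10. The log2 fold change was -3.30 ± 0.77 (SE), with an unadjusted p of 0.000531 and an edgeR adjusted p of 0.219, which did not pass. With DESeq2 it was -3.02 with an adjusted p of 0.0011, and 61 of 8118 genes with an adjusted p (0.751%) were called lower in this way. Over the 17 fits tried, the adjusted p ran from 0.0011 to 0.920 and the change from -3.48 to -0.46. It was -0.87 when classes were drawn by Top2a, another gene of cycling cells, at the same limits.

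The mean log2(CPM + 1) of Rbfox2 was 3.16 in Mki67-high and 4.29 in Mki67-low cells. The differences in groups 1 to 6 were -0.31, -3.14, -0.39, -1.06, -0.57 and -1.29, lower in 6 of 6 (mean -1.13 ± 1.06 SD, exact two-sided sign-flip p = 0.03125, the smallest this design can give, adjusted p over all genes 0.345). Of all genes tested, 106 (1.17%) were lower in 6 of 6 groups and 717 (7.89%) higher. Without library group 2 the mean was -0.72. The 5 highest Rbfox2 cells were all Mki67-low, came from 5 library groups, and 3 of them were among the cells with inhibitory neuron markers. At least 50 CPM of Rbfox2 was found in 8 of 12 Mki67-low cells with these markers and in 19 of the other 63. Among Mki67-high cells it was found in the 1 cell with these markers and in 8 of the other 31. Without the cells with these markers the mean difference was -0.89, lower in 5 of 6 groups (exact p = 0.156), while the fold change of the sums was -3.33. Without the cells with astroglial genes the mean was -1.50, lower in 6 of 6.

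**Figure D3:**
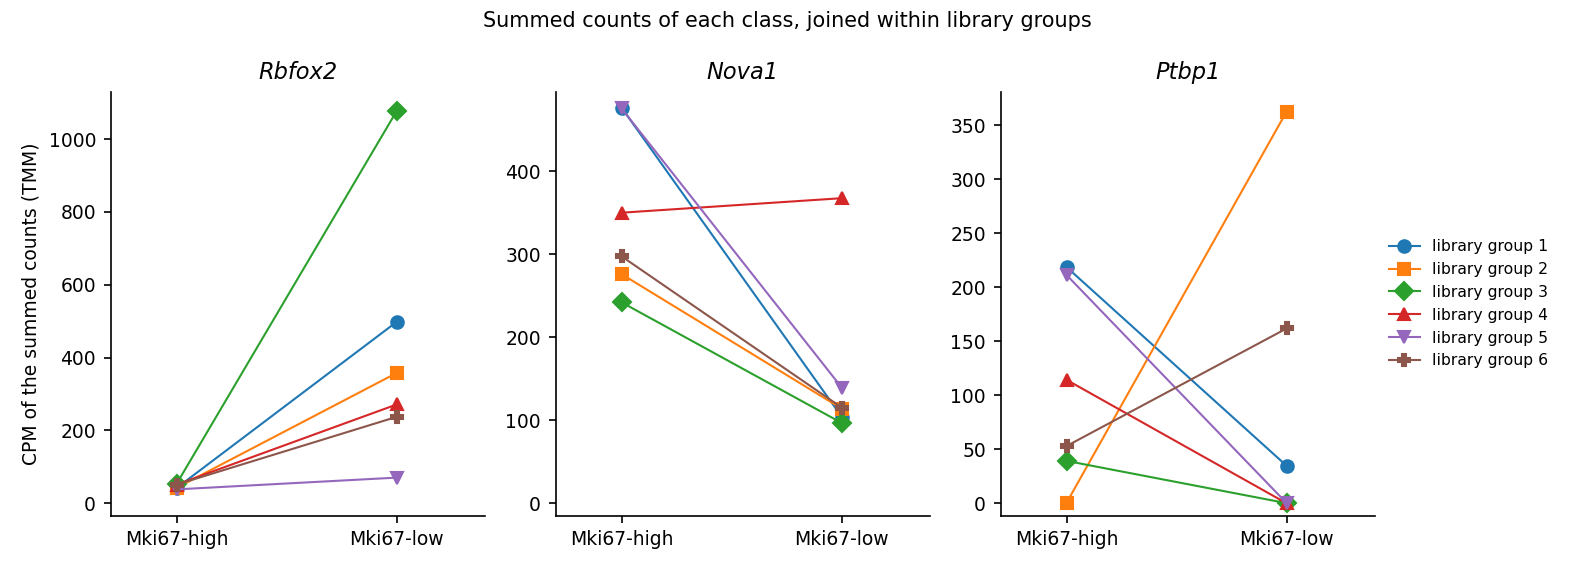
CPM of the summed counts (vertical axis, scaled by TMM) of Rbfox2, Nova1 and Ptbp1 in Mki67-high and Mki67-low cells, with lines joining the classes of each library group. Rbfox2 is higher in Mki67-low cells in 6 of 6 groups, Nova1 is higher in Mki67-high cells in 5 of 6, and the lines of Ptbp1 cross.

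Rbfox3 (chr11:118489762-118911597, minus strand), whose protein is the NeuN antigen, had at least 1 count in 29 of 32 Mki67-high and 69 of 75 Mki67-low cells. It reached 50 CPM in 11 (34.4%, 20.4 to 51.7) and 35 (46.7%, 35.8 to 57.8) of them. The median was 20.3 CPM in Mki67-high and 26.1 CPM in Mki67-low cells, with highest values of 752 and 2555 CPM. The sums were 28.9 to 219 CPM against 76.6 to 307 CPM and were lower in Mki67-high cells in 5 of 6 groups, with overlap between classes (log2 fold change -1.12 ± 0.78 SE, edgeR adjusted p = 0.779). The sign was negative in 17 of 17 fits, and none called it. Among Mki67-low cells with at least 100 CPM of Dcx, a gene of young migrating neurons, Rbfox3 reached 50 CPM in 32 of 62, with a median of 87.5 CPM.

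Rbfox1 (chr16:5885355-7411526, plus strand), the family member of mature neurons and muscle, was among the least frequent. It had no count in 64 of 109 cells, and it reached 50 CPM in 4 of 32 Mki67-high and 11 of 75 Mki67-low cells. A single cell held 82.9% of its summed CPM in Mki67-high cells, at 1484 CPM, and the next cell had 81.5 CPM. The sums were 0 to 271 CPM in Mki67-high and 4.33 to 121 CPM in Mki67-low cells, with a log2 fold change of 0.03 ± 1.74 (SE, edgeR adjusted p = 0.997). With equal weight for each cell the difference was -0.62, with 3 groups in each direction (exact p = 0.406). In library group 5, which held that cell, the sums were 271 and 32.7 CPM, and without this group the fold change was -2.78.

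Of the neuronal Elavl genes, Elavl3 (chr9:22015005-22052023, minus strand), an early and lasting marker of the neuronal lineage, was found in the most cells. It had a count in 32 of 32 Mki67-high and 74 of 75 Mki67-low cells, and it reached 50 CPM in 18 (56.3%, 39.3 to 71.8) and 48 (64.0%, 52.7 to 73.9). The medians were 87.0 and 147 CPM. In library group 5, the 10 Mki67-low cells ran from 66.8 to 3605 CPM with a median of 1000, and the 8 Mki67-high cells from 3.47 to 1686 CPM with a median of 63.7. In library group 3 the medians were 24.1 and 130 CPM, in the other order. Over all groups the differences fell on both sides, 3 of 6 in each direction (mean -1.06 ± 2.30 SD, exact p = 0.375). The sums gave -0.59 ± 0.72 (SE, edgeR adjusted p = 0.889). Without library group 2 these were -0.45 and -0.083, without library group 5 -0.61 and -0.13, without library group 3 the mean difference was -1.67, and without library group 1 the change of the sums was -1.15. Exons of Elavl3 overlap Gm49318 on the same strand.

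Elavl4 (chr4:110203722-110351909, minus strand), the HuD gene of postmitotic neurons, reached the highest level per kilobase. It was at least 50 CPM in 15 of 32 Mki67-high (46.9%, 30.9 to 63.6) and 44 of 75 Mki67-low cells (58.7%, 47.4 to 69.1), with medians of 24.7 and 156 CPM. The highest value was 1542 CPM in Mki67-high cells, and 9 Mki67-low cells were above it, up to 4794 CPM. The 4 Mki67-high cells of library group 1 had 0 to 0.79 CPM, against 0 to 1225 CPM in its 15 Mki67-low cells, whereas the 4 Mki67-high cells of library group 2 reached 1514 CPM. The mean difference was -1.46 ± 2.47 (SD), lower in 4 of 6 groups (exact p = 0.219), and the sums gave -0.84 ± 0.91 (SE, edgeR adjusted p = 0.875). Without library group 1 the mean difference was -0.72, and the sums gave -0.47 without library group 4 and -1.34 without library group 2.

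Elavl2 (chr4:91250763-91400785, minus strand), also called HuB, had the higher median in Mki67-high cells, unlike Elavl3 and Elavl4. These genes were not tested against each other. It reached 50 CPM in 21 of 32 Mki67-high cells (65.6%, 48.3 to 79.6) and 29 of 75 Mki67-low cells (38.7%, 28.5 to 49.98). The median was 119 CPM in Mki67-high and 11.7 CPM in Mki67-low cells. Mean log2(CPM + 1) was higher in Mki67-high cells in 4 of 6 groups (mean difference 1.29 ± 1.70 SD, exact p = 0.156). The sums gave the other sign, -0.24 ± 0.66 (SE, edgeR adjusted p = 0.959). The highest cell, at 4700 CPM, was Mki67-low, and the 5 highest cells of a class held 57.8% of its CPM in Mki67-high and 58.4% in Mki67-low cells. With at least 5 counts it was found in 26 of 32 and 46 of 75 cells (exact p = 0.125).

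Nova1 (chr12:46694517-46818929, minus strand), a splicing regulator of the hindbrain and spinal cord, was at least 50 CPM in 20 of 32 Mki67-high (62.5%, 45.3 to 77.1) and 35 of 75 Mki67-low cells (46.7%, 35.8 to 57.8). The medians were 105 and 12.8 CPM. The sums of Mki67-high cells were 477, 276, 242, 350, 476 and 298 CPM in library groups 1 to 6, and those of Mki67-low cells 104, 114, 96.9, 368, 140 and 115 CPM. They were higher in Mki67-high cells in 5 of 6 groups, and library group 4 alone made the classes overlap. The log2 fold change was 1.14 ± 0.66 (SE, unadjusted p = 0.0995, edgeR adjusted p = 0.725). The mean log2(CPM + 1) was 5.97 and 4.198 in the classes, a difference of 1.77 ± 1.62 (SD), higher in 5 of 6 groups (exact p = 0.0625). After every cell was thinned to 1000000 counts, Nova1 was detected in 29 of 32 (90.6%) and 53 of 75 (70.7%) cells, higher in 6 of 6 groups (exact p = 0.03125, unadjusted, with 10 genes tested). With at least 5 thinned counts it was found in 24 of 32 and 43 of 75, higher in 4 of 6 groups (exact p = 0.219). The share at 50 CPM was also higher in 4 of 6 (exact p = 0.219). Without thinning the shares with at least 1 count were 93.8% and 90.7% (exact p = 0.438). How many of all genes reach 6 of 6 after thinning was not tested. The number of genes detected was also higher in Mki67-high cells, and its part in the difference after thinning was not tested. Exons of Nova1 overlap Gm33869 on the same strand, and those of Nova2 overlap Gm26821 on the other strand.

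Nova2 (chr7:18925888-18965319, plus strand), the Nova gene best known from the neocortex, was less frequent. It had a count in 19 of 32 Mki67-high and 44 of 75 Mki67-low cells and reached 50 CPM in 7 (21.9%, 11 to 38.8) and 13 (17.3%, 10.4 to 27.4). The median was under 1 CPM in both classes, 0.38 and 0.62. A single cell of 3044 CPM held 68.6% of its CPM in Mki67-high cells. The sums ran from 0.61 to 265 and 20.8 to 181 CPM (log2 fold change -0.19 ± 1.35 SE, edgeR adjusted p = 0.992), and mean log2(CPM + 1) was lower in Mki67-high cells in 5 of 6 groups (mean difference -0.44 ± 1.23 SD, exact p = 0.375). Without library group 6 the mean difference was -0.92, lower in 5 of 5 (exact p = 0.0625, the smallest that 5 groups can give), and without library group 1 or 4 it was -0.28 and -0.29.

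**Figure D4:**
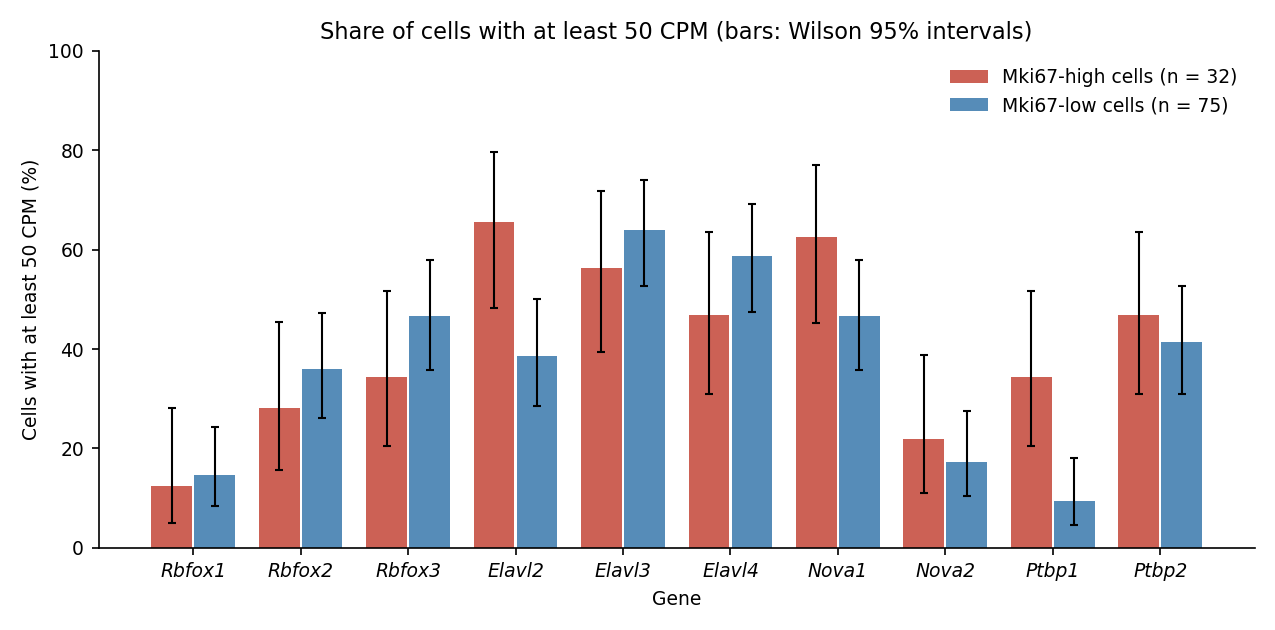
Share of cells with at least 50 CPM (vertical axis, percent) for each gene in Mki67-high cells (red, n = 32) and Mki67-low cells (blue, n = 75), with Wilson 95% intervals. The widest gaps are those of Elavl2 (65.6% and 38.7%) and Ptbp1 (34.4% and 9.33%), both with the higher share in Mki67-high cells.

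Ptbp1 (chr10:79854427-79864771, plus strand), the repressor of neuronal exons in progenitors, had no count in 61 of 109 cells. It reached 50 CPM in 11 of 32 Mki67-high cells (34.4%, 20.4 to 51.7) and 7 of 75 Mki67-low cells (9.33%, 4.59 to 18). With at least 5 counts the numbers were 14 of 32 (43.8%) and 12 of 75 (16%), higher in Mki67-high cells in 5 of 6 groups (mean difference 23.5 percentage points, exact p = 0.188). Library group 2 went the other way, with no count of 5 or more in its 4 Mki67-high cells and such counts in 5 of its 12 Mki67-low cells. Among the few Mki67-low cells with Ptbp1 the highest had 3862 CPM, and that cell held 59.6% of the CPM of the class.

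In the sums, Ptbp1 was 219, 0.44, 39.3, 114, 211 and 53.0 CPM in Mki67-high cells of library groups 1 to 6 and 34.8, 363, 0.14, 0.015, 0.18 and 162 CPM in Mki67-low cells. The log2 fold change was 0.28 ± 1.69 (SE, edgeR adjusted p = 0.988). With equal weight for each cell, the difference was 1.88 ± 2.52 (SD), higher in 5 of 6 groups (exact p = 0.125). It was 1.61 without the 3 cells of unusual depth, 1.54 without the cells with astroglial genes and 1.66 without those with inhibitory neuron genes. Each of these was higher in 4 of 6 groups (exact p = 0.188, 0.188 and 0.219). With classes by Top2a the difference was 2.21, higher in 5 of 6 (exact p = 0.0938). Exons of Ptbp1 overlap Plppr3, Gm17134 and E130317F20Rik on the other strand, and the strand setting of the counting is not given in the sources used here, so reads of overlapping genes cannot be told apart. E130317F20Rik had 5 or more counts in 3 cells, at most 39. Of the 50-base stretches of Ptbp1 exons, 4.75% occur also in the pseudogenes Gm18815 and Gm4900.

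Ptbp2 (chr3:119718742-119784466, minus strand), the neuronal family member, was found in more cells than Ptbp1 in both classes. It had a count in 29 of 32 Mki67-high and 66 of 75 Mki67-low cells and reached 50 CPM in 15 (46.9%, 30.9 to 63.6) and 31 (41.3%, 30.9 to 52.6). The medians were 25.8 and 14.8 CPM and the highest values 3187 and 3474 CPM. The sums were 0.92 to 530 and 141 to 803 CPM, higher in Mki67-high cells in 3 of 6 groups (log2 fold change -0.26 ± 0.85 SE, edgeR adjusted p = 0.966). Mean log2(CPM + 1) differed by 0.55 ± 2.52 (SD), higher in 4 of 6 groups (exact p = 0.594).

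Ptbp1 and Ptbp2 were next compared within each cell, as the log2 ratio of counts plus 1 per kilobase of exon. Depth cancels only where both genes have many counts, since the added count weighs more in low counts. Of 103 cells with a count of either gene, Ptbp2 was the higher in 84 and Ptbp1 in 19. Only 41 of the 103 had a count of both, while 55 had Ptbp2 alone and 7 Ptbp1 alone. A single count of Ptbp2 against none of Ptbp1 (ratio -0.047) placed a cell among the 84. The median ratio per library group was -1.85, -5.05, -2.37, -4.54, -3.89 and -1.85 in groups 1 to 6, below 0 in 6 of 6 (mean -3.26 ± 1.41 SD, exact two-sided sign-flip p = 0.03125, the smallest this design can give). With 10 counts added in place of 1 the mean was -1.36, below 0 in 5 of 6 groups (exact p = 0.0625). In 41 cells with a count of both genes the mean was -2.29, below 0 in 5 of 6 groups (exact p = 0.156). In Mki67-high cells Ptbp1 was the higher in 9 of 32, and in Mki67-low cells in 8 of 69.

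**Figure D5:**
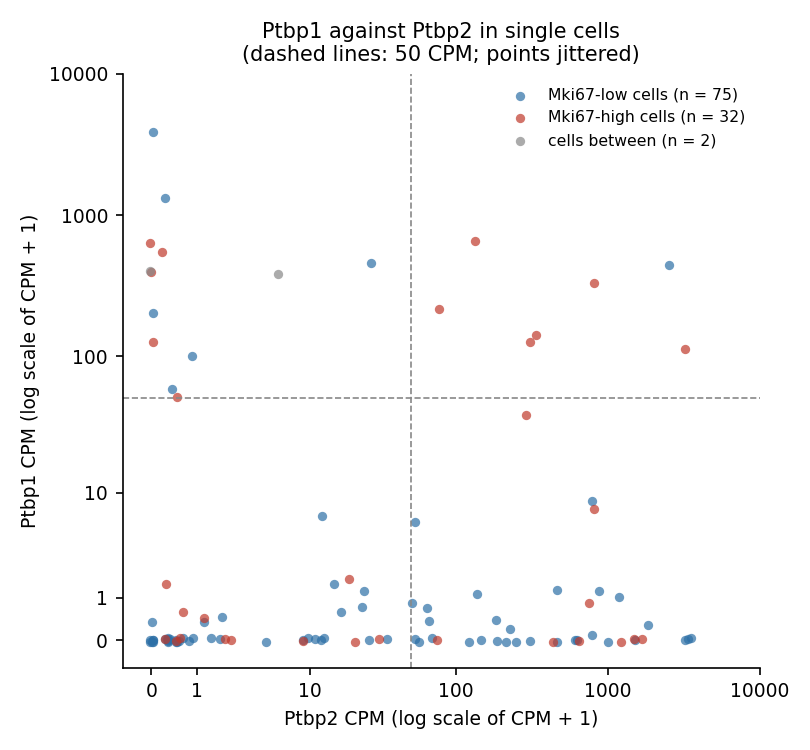
Ptbp1 CPM (vertical axis) against Ptbp2 CPM (horizontal axis) in each cell, both on a log scale of CPM + 1, with Mki67-high cells in red, Mki67-low cells in blue, 2 cells between in grey and dashed lines at 50 CPM. The upper right field, with both genes at 50 CPM or more, holds 6 Mki67-high cells and 1 Mki67-low cell, and the lower right field, with Ptbp2 alone, 9 and 30. Of the 6, 1 cell had 12684 genes with a count.

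Of 109 cells, 20 reached 50 CPM of Ptbp1 and 46 reached 50 CPM of Ptbp2. Most of these did not reach that level of the other gene. Whether the overlap differed from that of independent detection was not tested, and the Spearman rho of the pair was -0.004 over all cells. At 50 CPM, 7 of 109 cells had both genes, 13 Ptbp1 alone, 39 Ptbp2 alone and 50 neither. Of the 7 with both, 6 were Mki67-high and 1 was Mki67-low. Among these 6 was the cell with 12684 genes with a count, and whether it held more than 1 cell was not tested. Of those with Ptbp1 alone, 5 were Mki67-high and 6 Mki67-low, and the remaining 2 lay between the classes. The mean within-cell ratio was -1.66 in Mki67-high and -3.76 in Mki67-low cells. The differences in groups 1 to 6 were 6.92, -1.43, 1.71, -1.71, 7.15 and -0.03 (mean 2.10 ± 4.01 SD, exact p = 0.344), and the spread between library groups was larger than the difference. It was 3.98 in cells with a count of both genes, higher in Mki67-high cells in 6 of 6 groups (exact p = 0.03125, the smallest reachable), a subset of 41 cells in which a count of 1 to 4 can decide membership. With at least 5 counts of either gene it was 2.58 (exact p = 0.281).

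Expression of the 10 genes was only loosely joined from cell to cell. Over 109 cells the Spearman rho of the 45 pairs ran from -0.18 (Nova2 and Ptbp1) to 0.24 (Elavl4 and Nova2). Within families it was 0.20 for Rbfox1 with Rbfox3 and with Rbfox2, 0.17 for Elavl2 and Elavl4 and -0.08 for Nova1 and Nova2. Among 6607 genes with a count in at least 30 cells, no gene reached a rho of 0.5 with any of the 10, and the highest was 0.48, with Ptbp1. Cells share library group and depth, and in counts this sparse these values are a description only.

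Other regulators of neuronal RNA processing gave a similar picture. Of 22 such genes, 21 were in the table and 18 were tested, and edgeR called none (4 at an unadjusted p under 0.05, against 7.34% of all genes, and none called by DESeq2). Their median log2 fold change of the sums was -0.84 against -0.18 for all genes, whereas the median difference of mean log2(CPM + 1) was 0.54 against 0.43 for all genes, with the other sign. Srrm4, an activator of neuronal microexons, Mbnl2 and Celf4 were lower in Mki67-high cells in 6 of 6 groups, by 1.92, 1.30 and 1.62 on the log2 scale (1.17% of all genes were lower in 6 of 6). None of the 18 was higher in 6 of 6 (7.89% of all genes were). Against the median of 0.43 for all genes, Mbnl1, Msi2 and Tia1 were higher by 2.21, 0.82 and 0.65, each in 5 of 6 groups. The share of all genes higher in 5 of 6 was not counted. These 6 genes were named after their values were seen. None of 7 cell cycle genes was called by edgeR (5 at an unadjusted p under 0.05, 4 called by DESeq2). Their median log2 fold change was 3.45. None of 8 genes of neuronal maturation was called (5 at an unadjusted p under 0.05, 1 called by DESeq2), with a median of -1.35. Among all genes with an adjusted p, DESeq2 called 173 of 8118.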

How the data were processed

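Single-cell RNA-seq of 109 cells was used. The authors aligned reads to mm10 with STAR 2.4.1d and counted them per gene with HTSeq 0.6.1, and the deposited table holds these counts unscaled. The annotation used for counting and its strand setting are not given in the sources used here. Listed genes had a count in at least 3 cells. The 10 genes and all lists were chosen with earlier results of these data known. All cells were kept, except that tests between classes left out the 2 cells between, and doublets were not called.

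Counts were scaled to 1000000 per cell (CPM). For tests across genes, raw counts were summed per Mki67 class and library group (12 sums) and compared with edgeR 4.0.16 in R 4.3.3 (filterByExpr, TMM, quasi-likelihood test, Benjamini-Hochberg adjustment, threshold 0.01). Mean log2(CPM + 1), shares of cells and the Ptbp1 to Ptbp2 ratio were compared within library groups by exact two-sided sign-flip tests (threshold 0.05). Exon lengths and positions came from GENCODE on GRCm38. DESeq2 1.42.0, limma 3.58.1, other size factors, filters, pseudocounts, classes and cell sets served as alternatives, and the set without inhibitory neuron genes was added after the data were seen. Procedures were tested on simulated data. All 10 genes are described, list genes are named where called, and others were named after their values were seen. The result of a further short list is not reported here. Total counts per cell were 15071 to 8616017, and intervals cover counting error only.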

Additional observations from a re-analysis of the deposited data

Results flagged for a closer look

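Of 32 sets of 6 library groups examined for a group far from the others, 5 held one. About 1 set in 20 does so by chance only where values are independent and normally distributed. Sums set by single cells depart from this and the sets share cells, so the 5 are not read as an excess. The Rbfox1 sum of Mki67-high cells was 271 CPM in library group 5, against a median of 7.37 CPM over the groups. The Rbfox1 sum of Mki67-low cells was 121 CPM in library group 4, against a median of 35.7 CPM. The Nova1 sum of Mki67-low cells was 368 CPM in library group 4, against a median of 115 CPM. The Rbfox2 difference of mean log2(CPM + 1) was -3.14 in library group 2, against a median of -0.81, and the difference of Nova2 was 1.97 in library group 6, against a median of -0.95.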

How the results depend on the processing

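The number of genes called between the classes was 3, and 1 with the library group as a replicate block, 173 with DESeq2, 7 with size factors by relative log expression, 77 with limma on mean log2(CPM + 1), 7 at an adjusted p under 0.05, 0 with Mki67 at 1 count or more against 0 (1534 at an unadjusted p under 0.05), and 2 to 3 when 1 library group was left out. The sums of the same library group deviated together only weakly (correlation 0.02 to 0.06). In groups 1, 2, 3 and 5 the Mki67-high sum correlated best with the Mki67-low sum of its own group, in groups 4 and 6 with another. The replicate block changed no call of the 10 genes. The sign of uncalled changes between sums turned for Rbfox1 (-4.26 with the block, -0.0098 with no filter, -0.62 with limma, -0.18 without cells with inhibitory neuron genes), Elavl2 (1.29 with limma, 0.069 without 3 cells of unusual depth, 0.11 without astroglial cells), Nova1 (-0.20 with Mki67 at 1 count or more), Nova2 (0.34 without the 3 cells, 0.36 without astroglial cells, 1.90 with Mki67 at 1 count or more), Ptbp1 (-0.24 with classes by Top2a) and Ptbp2 (0.55 with limma, 0.025 without astroglial cells, 0.11 by Top2a, 0.0059 without cells with inhibitory neuron genes). Leaving out 1 library group gave -2.78 to 1.04 for Rbfox1, -0.47 to 0.092 for Elavl2, -0.77 to 0.33 for Nova2, -0.34 to 1.98 for Ptbp1 and -0.62 to 0.031 for Ptbp2 in the sums, and -0.29 to 1.24 for Ptbp2 in mean log2(CPM + 1). By Top2a, the mean difference of Rbfox1 was 0.010 and that of Rbfox2 was -1.10 (exact p = 0.0625). Without cells with inhibitory neuron genes Rbfox2 was -0.89 (exact p = 0.156), and without 1 library group -1.29 to -0.72. The difference in the share of cells with Rbfox3 became 2.83 percentage points at 5 counts, and that with Ptbp2 -6.12 after thinning. The Ptbp1 to Ptbp2 ratio was -1.36 with a pseudocount of 10 counts (exact p = 0.0625), -2.29 in cells with both genes (exact p = 0.156) and -3.54 to -2.90 without 1 library group. Its difference between classes was 3.98 in cells with both genes (exact p = 0.03125) and 1.09 to 2.87 without 1 library group. With 5 library groups the smallest reachable p is 0.0625, so these fits cannot pass 0.05. The cause of these shifts was not tested. With 3 to 8 Mki67-high cells in a library group, single cells set many of the sums.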
